A study of Homo sapiens with 6 samples.

Results

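The 29 genes described here encode the enzymes and regulators of cholesterol and fatty acid synthesis. They were taken by symbol from a table of 58174 genes measured in AGS, an established cell line from a human gastric adenocarcinoma. The study asked how the transcriptome of these cells differs once FTO is depleted. FTO is an RNA demethylase that removes the methyl group of N6-methyladenosine. Total RNA was sequenced from 3 si-NC libraries, from cells given a negative control siRNA and labelled wild type, and from 3 si-FTO libraries, from cells given an siRNA against FTO and labelled FTO-/-. The labels thus name a knockout where the methods describe a knockdown.

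The deposited table holds 1 mean per group as TPM, a transcript unit in which levels are scaled by transcript length and by the total of the library. Every level below is such a mean over a group's libraries. The spread between libraries is not known from these means, so no SD, interval or test is given, and a difference was read only against a fixed fold. That fold was 2, on the log2 ratio of si-FTO over si-NC after 1 TPM was added to each mean, among the 20493 genes with a mean of at least 0.5 TPM in at least 1 group. Adding 1 TPM makes the ratio of low genes smaller than that of the means themselves. The sequencing depth is unknown, since TPM does not keep it.

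The mean of FTO itself was 33.1 TPM in si-NC against 7.27 TPM in si-FTO (log2 ratio -2.05), so its transcript was lower in the group labelled for its loss but was not listed at 0. Over the genes compared as a whole, the median log2 ratio was -0.20, and 40.1% of the ratios were above 0. Median-ratio scaling, which divides the groups by the median ratio of genes above 0.5 TPM in both, removed a shift of -0.18 and left the median of all genes at -0.05. The members are therefore also given relative to the median of all genes.

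The labelled cell type was checked against 16 markers of gastric and epithelial cells, of which several were at or near 0 in both groups. TFF1, GKN1 and PGC, products of the gastric mucosa, were listed at 0 in both groups. EPCAM, an adhesion protein of epithelial cells, was at 1.22 TPM in si-NC against 0.11 TPM in si-FTO, and E-cadherin (CDH1) at 3.67 and 0.68 TPM. The keratins KRT8 and KRT18 went from 10.8 and 52.1 TPM in si-NC to 3139 and 1851 TPM in si-FTO, whereas GATA4, a transcription factor of the gut, went from 36.96 TPM to a value listed at 0. Summed over the 16 markers, the level was 126 TPM in si-NC, where KRT18 was the most abundant, and 5000.3 TPM in si-FTO, where KRT8 was. In si-NC 6 of the 16 reached 1 TPM, and in si-FTO 5 did. GATA6 was at 20.3 TPM in si-NC against 2.54 TPM in si-FTO, CLDN3 at 0.17 and 2.95 TPM, and CLDN4 at 0.23 and 2.70 TPM. KRT8, KRT18 and GATA6 reached 1 TPM in both groups. The groups differed widely in most of the markers that reached it in either. All 29 members were compared between the same libraries, and the part of this difference in their values was not tested. Whether both groups hold the same line of cells was not tested either, so each ratio below compares the libraries as labelled, and an effect of FTO cannot be told apart from any other difference between them.

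Cells make cholesterol from acetyl-CoA through mevalonate, isoprenoid diphosphates, squalene and lanosterol, and make fatty acids from the same acetyl-CoA through malonyl-CoA. Both pathways are controlled by the sterol regulatory element-binding proteins (SREBPs), transcription factors held in the endoplasmic reticulum with SCAP and INSIG proteins when sterols are plentiful, and released to the nucleus when sterols are scarce. SREBP-2, the product of SREBF2, is known mainly for the cholesterol genes, and the SREBP-1c form of SREBF1 for the fatty acid genes. Tumour cells commonly keep both pathways active.

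All 29 members were found and all passed the minimum of 0.5 TPM. None was listed at 0, and 28 reached 10 TPM in at least 1 group. Of the 29, 2 were higher in si-FTO by at least 2-fold, SREBF1 and ABCA1, beside 11.4% of all genes compared. Another 4 were lower by at least 2-fold, SQLE, TM7SF2, NSDHL and SC5D, beside 17.0% of all genes. As shares of the members these counts are 6.90% and 13.8%, and such small counts say nothing particular about the list. With a fold of 1.5, 7 members were higher (24.1%, beside 18.8% of all genes) and 9 were lower (31.0%, beside 31.2%). The median log2 ratio of the members was -0.03, or 0.17 relative to the median of all genes as deposited and -0.053 relative to it under quantile normalization. As deposited, 18 of the 29 lay above that median. Their summed level was 3556 TPM in si-NC against 4107 TPM in si-FTO, with SCD the most abundant in both.

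The members ran from -1.89 to 2.57, and their medians are given by role. The median log2 ratio was -0.18 over the 7 genes of the mevalonate steps, -0.89 over the 11 genes from squalene to cholesterol, -0.02 over the 4 SREBP regulators and 0.28 over the 5 genes of fatty acid synthesis. The last 2 members, which move sterols, had log2 ratios of 0.81 and 1.17. Under the other scalings the median of the genes from squalene to cholesterol ran from -0.92 to -0.71 and that of fatty acid synthesis from 0.25 to 0.46, while that of the regulators moved to 0.15 under median-ratio scaling. Roles were assigned from textbook knowledge. The 4 members lower by at least 2-fold were all among the 11 genes from squalene to cholesterol, 36.4% of that role beside 17.0% of all genes, a share that rests on 4 genes and was not tested.

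**Figure D1:**
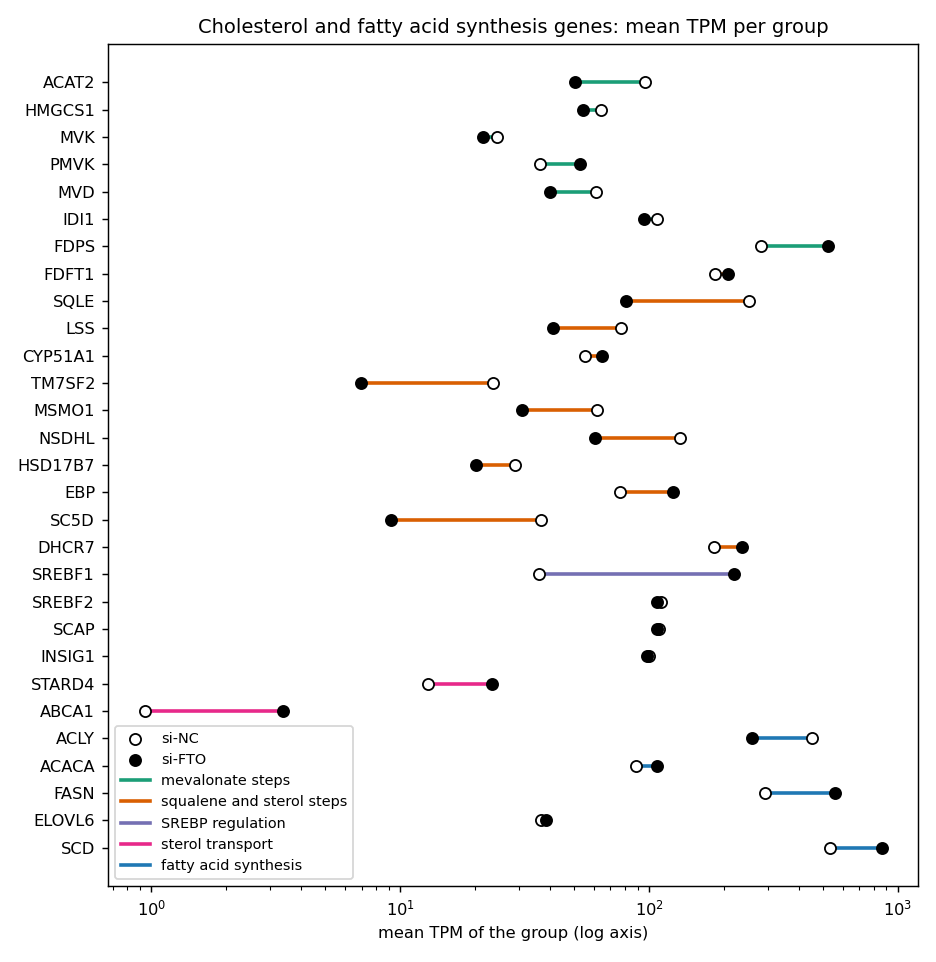
Mean TPM of each of the 29 members in si-NC (open circles) and si-FTO (filled circles) on a log axis, joined by a line coloured by role. SREBF1 shows the widest gap to the right, from 36.1 to 219 TPM, and SC5D the widest to the left, from 36.9 to 9.20 TPM.

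**Figure D2:**
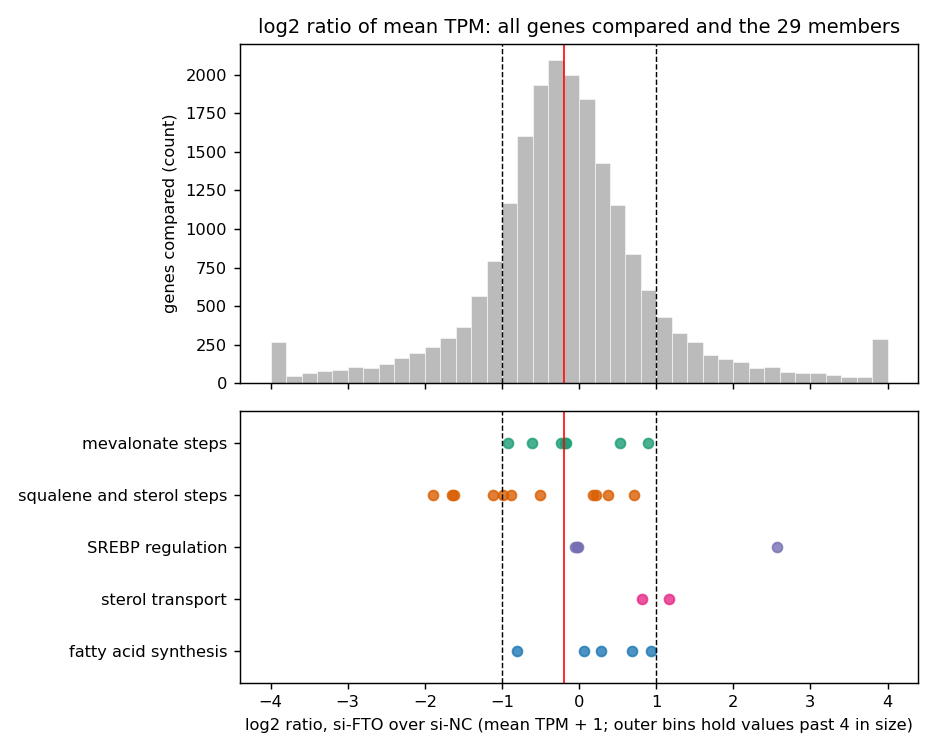
Above, the number of genes compared per bin of log2 ratio (si-FTO over si-NC, mean TPM + 1); below, the members by role, 1 point per gene. Dashed lines mark a 2-fold difference and the red line the median of all genes at -0.20. The 11 genes from squalene to cholesterol run from -1.89 to 0.71.

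Among the regulators, SREBF1 stood apart from the other 3. Its mean was 36.1 TPM in si-NC against 219 TPM in si-FTO, a ratio of means of 6.06 and a log2 ratio of 2.57. It ranked at place 658 from the top among the 20493 genes compared, with 96.8% of them below it. SREBF2 was at 112 and 108 TPM (log2 ratio -0.05), SCAP, the escort protein of SREBPs, at 109.5 and 107 TPM (-0.03), and INSIG1, which holds SCAP in the endoplasmic reticulum and is itself a well-known SREBP target, at 99.6 and 98.5 TPM (-0.02). The 3 lay just below 0 as deposited but above the median of all genes, and under median-ratio scaling each took a small positive value (0.12, 0.15 and 0.16), so no direction is given for them. SREBF1 was at 0.32 times the level of SREBF2 in si-NC and at 2.02 times in si-FTO. The transcripts of both SREBP genes were thus in opposite order in the groups. TPM counts all transcripts of a gene together, so the SREBP-1a and SREBP-1c forms were not told apart.

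The promoters of SREBF1 and SREBF2 are shown because SREBF1 had the highest log2 ratio of the 29 members while that of SREBF2, its paralog, was near 0. The sequences come from the RefSeq promoter table (GRCh38.p14), which gives 250 bases before to 50 bases after each annotated start. Entries were found for 25 of the 29 members, 33 windows in all, since 6 members had more than 1. ACAT2, FDFT1, FASN and SQLE had no entry. Each window was searched on both strands for the sterol regulatory element TCACNCCAC, the NF-Y box CCAAT, the E-box CACGTG and the GC box GGGCGG. These are the motifs that SREBPs and their partner factors NF-Y and Sp1 are known to bind. The 250 bases before the start follow, 5′ to 3′ on the strand of the gene, with matches in capitals. SREBF1 is on the minus strand at chr17:17836987-17837236 and SREBF2 on the plus strand at chr22:41832855-41833104.
SREBF1: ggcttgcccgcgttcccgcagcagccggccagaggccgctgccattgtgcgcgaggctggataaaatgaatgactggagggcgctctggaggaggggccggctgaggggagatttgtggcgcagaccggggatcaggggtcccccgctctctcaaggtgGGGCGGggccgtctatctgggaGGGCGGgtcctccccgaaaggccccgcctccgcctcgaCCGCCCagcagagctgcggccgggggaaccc
SREBF2: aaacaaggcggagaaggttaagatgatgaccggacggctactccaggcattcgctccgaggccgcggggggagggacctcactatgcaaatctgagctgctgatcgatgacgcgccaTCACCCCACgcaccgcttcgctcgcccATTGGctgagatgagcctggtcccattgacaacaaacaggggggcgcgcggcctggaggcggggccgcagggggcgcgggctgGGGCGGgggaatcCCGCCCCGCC
The window of SREBF1, the only one listed for this gene, held 3 GC boxes and none of the other motifs. Which SREBP-1 form starts there was not determined, and any other start of the gene was not searched. That of SREBF2 held 1 sterol regulatory element, 1 NF-Y box and 3 GC boxes, of which 1 runs past the stretch shown. SREBF2 was the single member of the 25 with the sterol regulatory element in this exact spelling, which 1.13% of the 35116 windows in the table held.

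Each SREBP gene also carries a microRNA in an intron on its own strand, MIR33B in SREBF1 and MIR33A in SREBF2, as the GRCh37 annotation places them. These microRNAs are known to target ABCA1. Their mature 5p forms share the seed (bases 2 to 8, in capitals), as the RefSeq sequences show, at chr17:17813897-17813916 and chr22:41900949-41900969 in GRCh38.p14.
hsa-miR-33b-5p: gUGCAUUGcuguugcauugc
hsa-miR-33a-5p: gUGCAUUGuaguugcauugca
The gene entry of MIR33B was listed at 0.066 TPM in si-NC against 0.95 TPM in si-FTO, and that of MIR33A at 0.074 TPM and 0. Libraries of total RNA do not measure mature microRNAs, and reads of an unspliced host transcript fall on the same bases, so these values carry no level of the microRNA. Both were named after their values were seen.

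The 7 genes from acetyl-CoA to farnesyl diphosphate were all within 2-fold. ACAT2, the cytosolic thiolase that joins acetyl-CoA units, was at 96.2 TPM in si-NC against 50.4 TPM in si-FTO (log2 ratio -0.92). HMGCS1, which makes hydroxymethylglutaryl-CoA and is a classical SREBP-2 target, was at 64.0 and 54.2 TPM (-0.24), or -0.03 relative to the median of all genes. Mevalonate kinase (MVK) was at 24.5 and 21.4 TPM (-0.18). HMGCS1 and MVK thus sat at the middle of all genes compared. The kinase of the following step, PMVK, was higher in si-FTO, at 36.3 and 52.8 TPM (0.53), and the decarboxylase MVD lower, at 61.2 and 39.8 TPM (-0.61). The isomerase IDI1 was at 107 and 95.1 TPM (-0.17), a value that moved to 0.005 under median-ratio scaling. FDPS, which builds farnesyl diphosphate for sterols and for prenylated proteins, was the most abundant of the 7, at 282 TPM in si-NC against 526 TPM in si-FTO. Its log2 ratio of 0.90 lay within 2-fold, but reached 1.07 under median-ratio scaling. Summed over the 7 genes the level was 671 TPM in si-NC against 839 TPM in si-FTO. FDPS gained more TPM than the sum did, since 5 of the 7 were lower in si-FTO.

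The 11 genes from squalene to cholesterol divided into 7 below 0 and 4 above 0, beside 40.1% of all genes compared above 0. Such a split says nothing particular about the 11. Each of them kept its sign under every scaling run. SQLE, the epoxidase that takes the first oxygen into squalene and is often named as a control point after mevalonate, was at 253 TPM in si-NC against 80.5 TPM in si-FTO. Its log2 ratio of -1.64 placed it above only 8.23% of genes. SC5D, which sets the double bond at carbon 5 of the sterol ring, had the lowest ratio of the 29, with 36.9 and 9.20 TPM (-1.89). TM7SF2, a sterol C14 reductase, was at 23.5 and 6.93 TPM (-1.63). NSDHL, which takes part in the removal of the C4 methyl groups, was at 133 and 60.9 TPM (-1.11). These 4 were the members lower by at least 2-fold, and NSDHL alone among them moved inside 2-fold under a scaling, to -0.94 with median-ratio scaling.

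The promoters of 3 of these 4 genes had entries, and all 3 lie on the plus strand: SC5D at chr11:121292521-121292770, TM7SF2 at chr11:65111622-65111871 and NSDHL at chrX:152830813-152831062. The same 250 bases before the start are shown with the same motifs in capitals. SC5D had another window that overlaps the one shown.
SC5D: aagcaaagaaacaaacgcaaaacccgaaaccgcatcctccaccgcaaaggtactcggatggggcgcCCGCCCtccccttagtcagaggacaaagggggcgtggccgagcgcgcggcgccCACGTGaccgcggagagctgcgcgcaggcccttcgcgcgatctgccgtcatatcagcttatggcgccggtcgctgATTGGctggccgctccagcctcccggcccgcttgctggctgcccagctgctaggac
TM7SF2: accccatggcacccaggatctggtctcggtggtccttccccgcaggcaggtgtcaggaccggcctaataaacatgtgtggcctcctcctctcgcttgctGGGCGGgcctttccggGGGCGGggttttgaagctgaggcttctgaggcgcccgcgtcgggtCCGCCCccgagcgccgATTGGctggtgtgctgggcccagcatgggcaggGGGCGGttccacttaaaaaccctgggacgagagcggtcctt
NSDHL: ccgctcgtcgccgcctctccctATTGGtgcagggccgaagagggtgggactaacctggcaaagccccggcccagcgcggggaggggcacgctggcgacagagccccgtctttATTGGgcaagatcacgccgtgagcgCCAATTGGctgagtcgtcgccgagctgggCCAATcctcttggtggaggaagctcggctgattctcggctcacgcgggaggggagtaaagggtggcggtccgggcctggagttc
The windows differed in their motifs. SC5D held 1 NF-Y box, 1 E-box and 1 GC box, TM7SF2 held 1 NF-Y box and 4 GC boxes, and NSDHL held 5 NF-Y boxes, of which 2 share bases, and no GC box. An NF-Y box was the one motif found in all 3, and 34.6% of all windows in the table held it.

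Of the other 7 sterol enzymes, 3 were lower in si-FTO and 4 higher, all within 2-fold. Lanosterol synthase (LSS) was at 76.9 and 41.2 TPM (-0.89) and the C4 methyl oxidase MSMO1 at 61.9 and 30.9 TPM. The log2 ratio of MSMO1, -0.98, stood next to the fold used and passed it with a pseudocount of 0.1 (-1.002) and once mitochondrially encoded genes were left out (-1.01). HSD17B7, the 3-ketosteroid reductase of the same C4 complex, was at 29.02 and 20.2 TPM (-0.50). Its value is uncertain, because the near-identical pseudogene HSD17B7P2 was listed at 4.23 TPM in si-NC against 0.87 TPM in si-FTO and reads could be split between them. The genes above 0 were FDFT1, the squalene synthase, at 184 and 208 TPM (0.18), the C14 demethylase CYP51A1 at 55.5 and 64.9 TPM (0.22), the isomerase EBP at 76.3 and 125 TPM (0.71), and DHCR7, the reductase of the last step, at 182 and 236 TPM (0.37).

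Some enzymes that act next to each other were on opposite sides, while others, such as SQLE and LSS, or MSMO1, NSDHL and HSD17B7, were on the same side. The pairs given next were chosen after their values were seen. FDFT1, which makes squalene, was at 0.73 times the level of SQLE in si-NC and at 2.59 times in si-FTO. EBP was at 2.07 times the level of SC5D, the enzyme after it, in si-NC and at 13.6 times in si-FTO, and DHCR7, the enzyme following SC5D, at 4.94 and 25.6 times. The summed level of the 11 genes came to 1112 TPM in si-NC, with SQLE the most abundant, and 884 TPM in si-FTO, with DHCR7 the most abundant. Levels of transcripts give neither enzyme amounts nor flux.

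In fatty acid synthesis, ACLY was below 0 and the other 4 genes were above 0, ELOVL6 only slightly, beside 40.1% of all genes compared. ACLY, which splits citrate into cytosolic acetyl-CoA for both pathways, was at 451 TPM in si-NC against 259 TPM in si-FTO (log2 ratio -0.80). Acetyl-CoA carboxylase (ACACA), which makes malonyl-CoA, was at 88.4 and 108 TPM (0.28). FASN, the multifunctional enzyme that builds palmitate, was at 292 and 559 TPM (0.94). ELOVL6, which lengthens palmitate, was at 36.6 and 38.4 TPM (0.07), and SCD, which sets a double bond into stearate and palmitate, at 533 and 860.3 TPM (0.69). All 5 were within 2-fold and kept their sign under every scaling run, and FASN passed 2-fold under median-ratio scaling (1.11). FASN was at 0.65 times the level of ACLY in si-NC and at 2.16 times in si-FTO. FASN and SCD were among the 3 most abundant members in si-FTO, beside FDPS.

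Both members that move sterols were above 0. STARD4, a soluble carrier of cholesterol between membranes, was at 12.9 and 23.4 TPM (0.81). ABCA1, which exports cholesterol to lipid-poor apolipoproteins, was at 0.94 TPM in si-NC against 3.37 TPM in si-FTO, the lowest levels of the 29. Its ratio of means was 3.59, but its log2 ratio was 1.17, because the 1 TPM added to each mean is as large as the si-NC level. With a minimum of 5 or 10 TPM ABCA1 is not compared, which leaves SREBF1 as the only member higher by at least 2-fold. At 10 TPM the backgrounds were 13.3% higher and 15.0% lower among 10785 genes, and the members counted 1 and 4.

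The motifs in the promoter windows of the 25 matched members were also found in other genes. An NF-Y box was in 23 of their 33 windows (69.7%), beside 34.6% of all windows and 35.2% of the 12272 windows of genes at 10 TPM or more. A GC box was in 30 of 33 (90.9%), beside 45.0% of all windows and 68.0% of those of genes at 10 TPM or more. The E-box was in 6 of 33 (18.2%, beside 7.26% and 9.84%). Counted per gene, with a match in any window, an NF-Y box was found in 19 of 25 members (76%, beside 44.1% of 8348 genes at 10 TPM or more), a GC box in 24 (96%, beside 79.2%) and an E-box in 5 (20%, beside 13.4%). The members are part of the sets they are set beside, some windows of 1 gene overlap, and none of these shares was tested. A match is only a match of letters, and a factor may bind other spellings or outside this window.

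**Figure D3:**
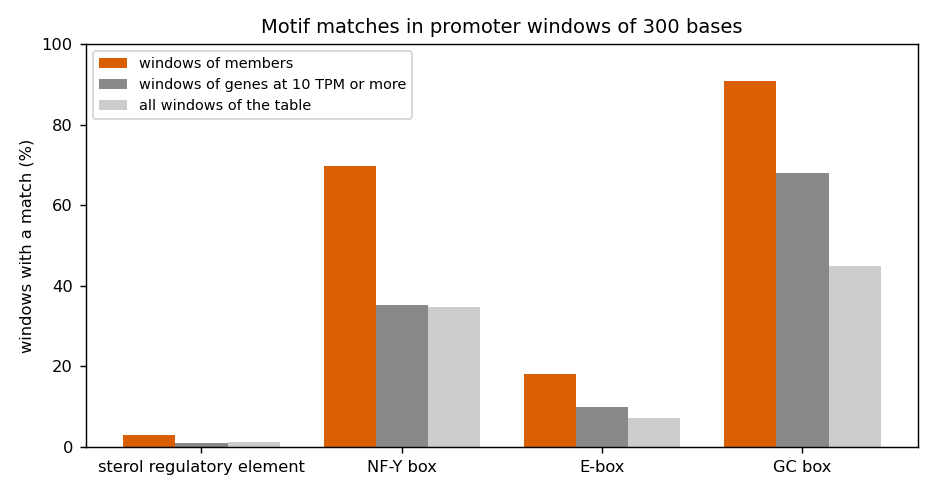
Share of promoter windows of 300 bases with a match on either strand to the sterol regulatory element, the NF-Y box, the E-box or the GC box, in %, for 33 windows of members, 12272 windows of genes at 10 TPM or more and all 35116 windows. The NF-Y box shows 69.7% for the members beside 35.2% and 34.6%.

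Position on the chromosome was compared next. For each member, the median log2 ratio was taken over the 25 genes on either side, among genes at 10 TPM or more in at least 1 group, with positions from GRCh37. The neighbours' medians ran from -0.79 to 0.42 across the 29 members. SREBF1 lay among genes with a median of -0.17, near that of all genes, so its own 2.57 was not shared by its stretch. TM7SF2 and SQLE lay among neighbours above 0 (0.42 and 0.23), and SC5D among neighbours at -0.53. NSDHL, in contrast, lay in a stretch of the X chromosome whose median was -0.79, so it differed from its neighbours by -0.32 only. LSS, at -0.89, had neighbours at -0.69. SREBF2 was the opposite case, with its own ratio at -0.05 and its neighbours on chromosome 22 at -0.78. EBP, also on the X chromosome, had neighbours at 0.34. Relative to their neighbours, SREBF1, ABCA1 and FASN were higher by at least 2-fold and SQLE, TM7SF2 and SC5D lower. Of the 10687 genes at 10 TPM or more with a position, 14.0% were higher and 10.6% lower relative to their own neighbours, so 3 and 3 of 29 say nothing particular about the members. ABCA1 is under 10 TPM and is not among these genes. With 10 genes on either side these 6 were still past 2-fold, and STARD4 (1.09) and HMGCS1 (-1.33) passed it too, beside 14.0% higher and 10.7% lower of the same genes. With that window, 20 of the 29 medians stayed within 0.2, and that of HMGCS1 moved most, from 0.35 to 1.10. The medians around TM7SF2, SQLE and SC5D came to 0.14, 0.10 and -0.29, nearer 0 than with 25 genes on either side. Copy number was not measured, and its part in these stretches was not tested.

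**Figure D4:**
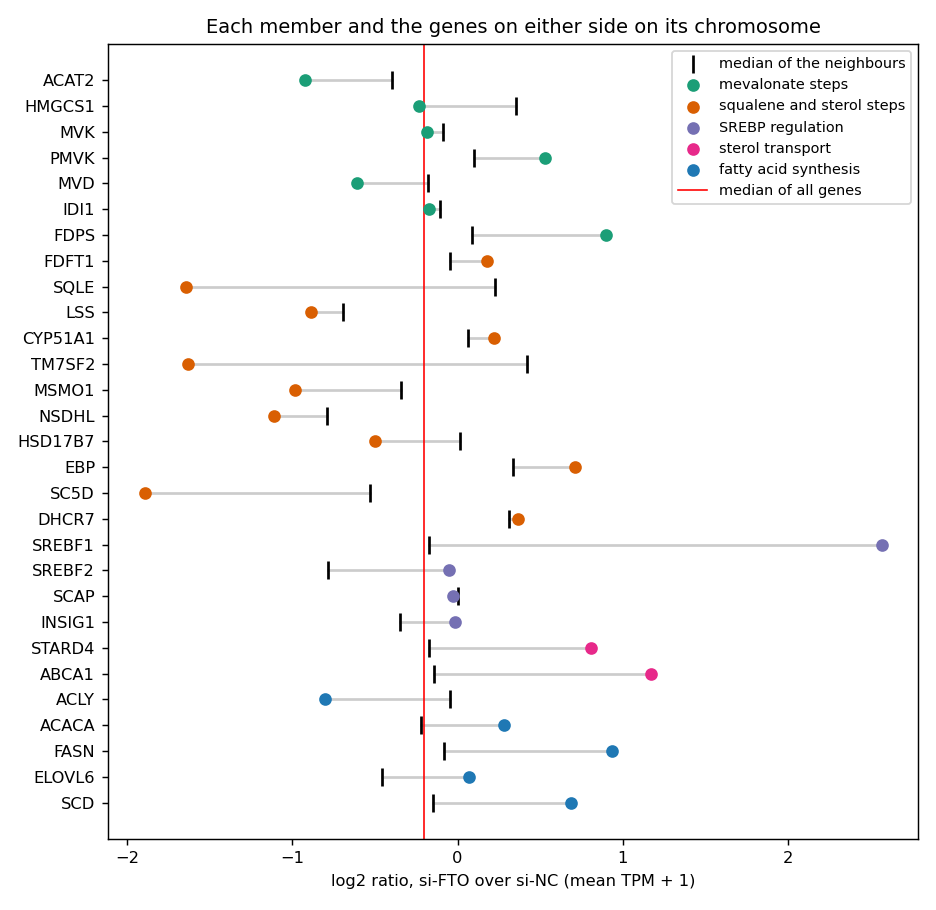
Log2 ratio of each member (points, coloured by role) and the median of up to 25 genes on either side on its chromosome (black ticks), with the median of all genes as a red line. SREBF1 and SC5D lie far from their neighbours, while NSDHL and LSS lie near neighbours that are themselves low.

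Genes whose exons overlap those of a member were listed, because reads of the shared bases could count for either gene. The library kit keeps the strand, but whether the counting used it is not given in the sources used here. ACAT2 shares 454 of its 2639 exonic bases with TCP1 on the opposite strand, a chaperonin subunit at 540.5 TPM in si-NC against 281 TPM in si-FTO (log2 ratio -0.94). ACAT2 had nearly the same ratio (-0.92) at a far lower level, so its value is uncertain. MVK shares 225 of its 9018 exonic bases with MMAB on the opposite strand, which was at 55.1 and 37.4 TPM (-0.55) and thus above MVK in level, so the value of MVK is uncertain in the same way. FDPS shares 693 of 3718 bases with RUSC1-AS1, which was at 10.1 and 10.7 TPM and thus far below FDPS. CYP51A1 shares 108 bases with AKAP9 (5.82 and 13.0 TPM) and SREBF1 556 bases with RAI1 (23.9 and 25.9 TPM). RAI1 was near 0 on the log2 scale (0.11) where SREBF1 was at 2.57. TM7SF2 shares 18 of its 3408 exonic bases on the same strand with VPS51, which was above it in level, at 63.1 and 69.1 TPM (0.13). The largest overlap, 2497 of the 6627 exonic bases of HMGCS1, was with an unnamed gene on the opposite strand at 1.00 and 0.87 TPM, far below HMGCS1. These partners were named for their overlap, after their values were seen. Of the antisense and divergent transcripts named after members, INSIG1-DT was at 5.67 and 1.84 TPM (-1.23), SREBF2-AS1 at 5.33 and 2.33 TPM (-0.93), STARD4-AS1 at 0.93 and 1.42 TPM (0.33) and CYP51A1-AS1 at 0.10 and 0.044 TPM. INSIG1 and SREBF2 themselves did not share the lower values of these transcripts. Pseudogenes of CYP51A1, FDPS, IDI1 and SCD were all under 0.5 TPM in both groups.

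The genes around the pathway were taken from 4 lists with 88 genes, of which 76 were compared. In these, 17 were higher and 10 lower by at least 2-fold (22.4% and 13.2%, beside 11.4% and 17.0% of all genes), with a median log2 ratio of -0.03. The shares of each list below are to be read beside the same 11.4% higher and 17.0% lower, and none was tested. The list of SREBP processing and sterol sensing had 13 genes compared, a median of 0.51, and 2 higher (15.4%) and 1 lower (7.69%). The genes higher were those of the liver X receptors, which sense oxysterols and are known to induce SREBF1 and ABCA1: NR1H3 went from 9.61 to 39.2 TPM (1.92) and NR1H2 from 23.7 to 50.4 TPM (1.06). PAQR3, a Golgi anchor of SCAP, was lower (11.5 and 4.35 TPM, -1.23). Of the genes within 2-fold, the protease gene MBTPS1, whose product cuts SREBPs, was the most abundant (86.6 and 124 TPM, 0.51).

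Isoprenoid and accessory sterol enzymes were mostly below 0. Of the 17 compared, 15 were below 0, where 40.1% of all genes compared were above 0, and 13 were below the median of all genes. By at least 2-fold, 5 were lower (29.4%) and 1 was higher (5.88%), and the median of the list was -0.48. POR, the reductase that feeds electrons to CYP51A1 and SQLE, was the gene higher, from 92.3 to 350.2 TPM (1.91). CYB5A, the cytochrome b5 that serves sterol and fatty acid desaturation, was at 21.1 TPM in si-NC but listed at 0 in si-FTO, so no fold is given. PGRMC1, a haem protein that binds CYP51A1, was at 385 and 144 TPM (-1.41). FNTA, a subunit of protein farnesyltransferase, was at 26.1 and 29.1 TPM (0.15). The other genes lower were LBR, NUS1 and FAXDC2, named after their values were seen. LBR carries the same C14 reductase activity as TM7SF2 and was at 127 and 50.3 TPM (-1.33), 5.41 times the level of TM7SF2 in si-NC and 7.25 times in si-FTO. Both genes for this step were thus lower by at least 2-fold. NUS1, of dolichol synthesis, was at 54.3 and 22.0 TPM (-1.26).

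Genes of fatty acid supply, elongation and desaturation had 8 higher (29.6%) and 3 lower (11.1%) by at least 2-fold of 27 compared, a median of 0.36, and 18 genes above the median of all genes. FADS1, the delta-5 desaturase of polyunsaturated fatty acids, went from 65.7 to 317 TPM (2.25) and was the list's most abundant gene in si-FTO, and FADS3 of the same gene cluster from 12.2 to 68.5 TPM (2.40). FADS2, the delta-6 desaturase that lies between them, was below 0 (79.0 and 55.0 TPM, -0.51). Of the elongases, ELOVL2 and ELOVL4 were lower by at least 2-fold, ELOVL2 from 16.1 to 0.57 TPM (-3.45) and ELOVL4 from 18.5 to 1.10 TPM (-3.21). The other gene lower, ACSL6, was at 3.35 TPM and listed at 0 in si-FTO. The other elongases compared, ELOVL1 (67.0 and 68.3 TPM, 0.03), ELOVL5 (0.36) and ELOVL7 (-0.54), were within 2-fold, as was the member ELOVL6. ACSL6, FADS2 and these 3 elongases were named after their values were seen.

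In the list of cholesterol uptake, traffic, esterification and efflux, 6 genes were higher (31.6%) and 1 lower (5.26%) by at least 2-fold of 19 compared, and the median was 0.005, with a sign that changed with the scaling. GRAMD1B, which carries cholesterol from the plasma membrane to the endoplasmic reticulum, went from 9.11 to 62.7 TPM (2.66). SOAT1, the enzyme that esterifies cholesterol there, went from 25.5 to 105 TPM (2.01), and NPC2, which releases cholesterol from lysosomes, from 90.9 to 233 TPM (1.35). LIPA, the lysosomal lipase, was at 77.7 and 40.9 TPM (-0.91), and the oxysterol-binding protein OSBPL2 at 23.6 and 20.3 TPM (-0.21). ABCG1, which like ABCA1 exports cholesterol, was at 2.78 and 11.3 TPM (1.71), and STARD5, the gene lower, at 8.03 and 0.95 TPM (-2.21). Both were named after their values were seen.

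Comparison lists of other pathways also held genes past 2-fold in both directions. Fatty acid oxidation had 2 higher and 2 lower by at least 2-fold of 24 compared (8.33% each), with a median of 0.10. CPT1A, which admits fatty acids to mitochondria, went from 12.5 to 88.2 TPM (2.72) and its muscle form CPT1B from 25.8 to 9.55 TPM (-1.35). ACADVL went from 75.1 to 257 TPM (1.76), CPT1C was at 23.9 and 13.2 TPM (-0.81), HADHA at 207 and 304 TPM (0.55), and ACADL, named after its values were seen, at 5.26 TPM and listed at 0 in si-FTO. Glycolysis had 1 higher, ENO3 from 7.56 to 211 TPM (4.63), and 1 lower, HK1 from 98.9 to 48.8 TPM (-1.003), of 18 compared (5.56% each), with a median of 0.19. Under median-ratio scaling 5 glycolysis genes were higher and 0 lower, beside 13.2% and 14.6% of all genes under that scaling. PFKP (0.97), PGAM1 (-0.45) and GAPDH, the most abundant with 5304 and 8518 TPM (0.68), were within 2-fold.

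**Figure D5:**
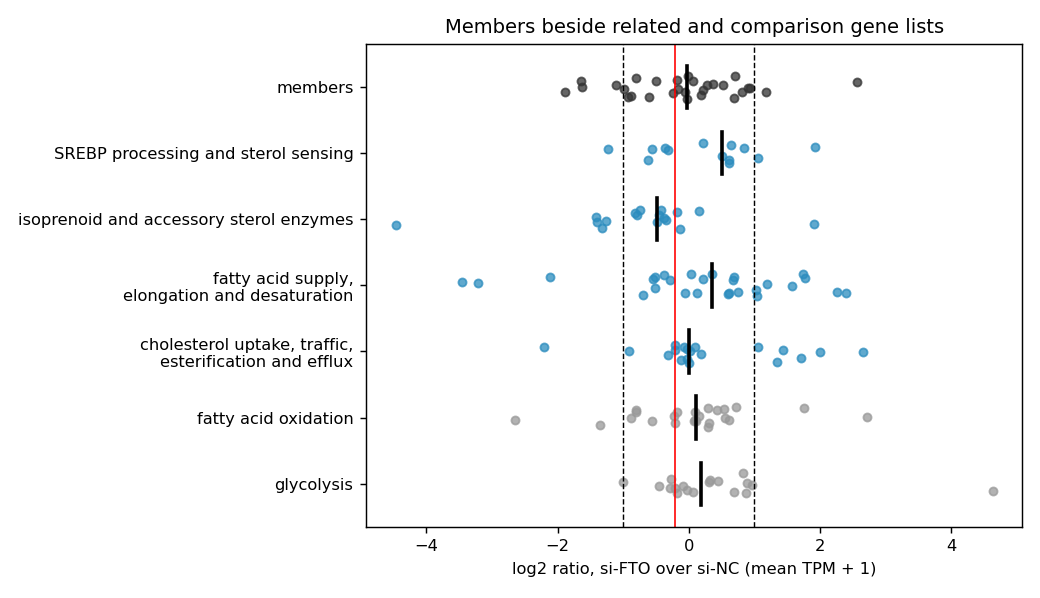
Log2 ratio (si-FTO over si-NC, mean TPM + 1) of each gene compared, 1 point per gene with vertical jitter, for the members (black), 4 related lists (blue) and 2 comparison lists (grey). Black bars are the lists' medians, the red line is the median of all genes at -0.20 and dashed lines mark 2-fold; genes listed at 0 in si-FTO, such as CYB5A, plot at a value set by the added 1 TPM.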

How the data were processed

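The authors sequenced total RNA of 3 si-NC and 3 si-FTO libraries and deposited TPM as 1 mean per group. Per the study's methods, reads were mapped to hg19 with Bowtie and quantified with RSEM, while the submitters' processing notes name HISAT2 and hg19. The annotation is not given in the sources used here. The same table holds the authors' own log2 fold change, p-value and q-value per gene, and another table repeats it for genes they selected; these were not used. Values of single libraries were not used here, so depth and spread are unknown and the limma fit and its paired form could not be made.

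A value of 0.0001 was read as 0. Symbols came from a table of gene names that matched 55726 of 58174 identifiers. The log2 ratio used a pseudocount of 1, a minimum mean of 0.5 TPM in at least 1 group and a 2-fold threshold. The members and lists were chosen with earlier results of these data known. Named genes are the 29 members, FTO, and pseudogenes and antisense transcripts of members above 0. Of each related or comparison list, among genes at 10 TPM or more, they are the 2 highest and 2 lowest log2 ratios and the 1 most abundant. Cell type markers were named from their lists under no such rule. Other genes are said to be named after their values were seen. Some genes covered by these rules are not reported here. Positions came from GENCODE lifted to GRCh37, and sequences from RefSeq tables of GRCh38.p14. Alternatives were another pseudocount, other minimums, folds and scalings, and a narrower neighbour window. Python 3.11.15, numpy 2.4.6, pandas 2.3.3 and matplotlib 3.10.9 were used, and the calculations were tested on simulated data.

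Marker lists of other cell types were also summed. Of 8 fibroblast markers, 4 reached 1 TPM in each group (17.0 and 46.7 TPM summed, COL1A1 the most abundant in both). Of 4 endothelial markers found, 0 and 1 did (0.44 and 41.0 TPM, KDR and CDH5), of 6 hepatocyte markers 0 in either (0.10 and 0.057 TPM), of 5 adipocyte markers 1 in each (2.96 and 114 TPM, LPL, with ADIPOQ and FABP4 at 0), and of 5 neuronal markers 2 and 1 (24.0 and 11.4 TPM, SYP and SNAP25). Of the leukocyte markers, PTPRC was listed at 0 in both groups. Their part in the results was not tested.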

Additional observations from a re-analysis of the deposited data

How the results depend on the processing

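No paired analysis was possible because the deposited columns are 1 mean per group, which carry no replicate number; leaving out replicates was not possible for the same reason. Of 202 values of single members under 7 alternatives (pseudocount 0.1, no minimum, a minimum of 5 TPM, quantile normalization, median-ratio scaling, and totals without mitochondrially encoded genes or without the 20 most abundant genes of either group), 193 kept their sign and their side of 2-fold, and 0 reversed from a value past 2-fold. Of the other 9, 4 passed 2-fold (MSMO1 in 2 of the settings, FDPS and FASN), 1 no longer did (NSDHL), and 4 changed sign near 0 under median-ratio scaling (IDI1, SREBF2, SCAP and INSIG1). The settings without a minimum and with a minimum of 5 TPM cannot change the ratio of a single gene. Their values are among the 193 by construction and say nothing about stability. The number of members higher by at least 2-fold was 1 with a minimum of 5 TPM or of 10 TPM, where ABCA1 is not compared, 4 under median-ratio scaling, beside 13.2% of all genes under that scaling, and 7 with a fold of 1.5. The number lower was 9 with a fold of 1.5. The median of the members was 0.15 under median-ratio scaling. Relative to all genes it was -0.030 without a minimum, where many genes at 0 set the median of all genes to 0, and -0.053 under quantile normalization. Under quantile normalization the median of all genes was -0.032, against -0.202 as deposited. That of the members was -0.085, against -0.030 as deposited. Why these medians moved was not tested. Genes lower by at least 2-fold numbered 3492 in all and 2254 with a minimum of 5 TPM, since fewer genes are then compared. The neighbours' medians moved by over 0.2 for 9 of the 29 members with 10 genes on either side. The motif counts have no alternative. The means limit all values: the error of each is unknown.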

Other observations

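In the list of isoprenoid and accessory sterol enzymes, 6 genes encode electron carriers or binding partners of the sterol enzymes, grouped from textbook knowledge after their values were seen. POR (1.91) was above 0 and the other 5 were below 0: PGRMC1 (-1.41), CYB5R3, the reductase of cytochrome b5, at 125 and 74.2 TPM (-0.74), ERG28, a scaffold of the C4 demethylation enzymes, at 38.7 and 27.9 TPM (-0.46), CYB5B, a mitochondrial cytochrome b5, at 58.8 and 45.0 TPM (-0.38), and CYB5A, listed at 0 in si-FTO. SC5D and the desaturase SCD both take electrons from cytochrome b5, and they were at -1.89 and 0.69. The signs of the 6 are to be read beside the 40.1% of all genes compared that were above 0. No test was possible on group means.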
